A study of Mus musculus with 8 samples.

Results

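The transcriptome of untreated wild-type macrophages was described from the single deposited column for mock-treated wild-type cells, which held 1 value for each of 11996 genes. The cells were peritoneal macrophages of C57BL/6 mice, recruited by thioglycolate, a sterile irritant, and left on plastic for 24 h before RNA was taken. This group had 2 of the 8 samples of the study and received neither IL-10 nor the Ptpn1 deletion. The other groups were Ptpn1-/- cells with mock treatment and cells of each genotype given IL-10 at 100 ng/ml for 4 h, and no gene's value in them is used here. All 11996 genes belong to the account, the members were chosen by having a row in that column, and no sequencing depth was given. The column carries no value per sample, so no level below has an SD, an n or a test. The labels do not say whether the 2 samples came from separate animals.

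Macrophages arise from blood monocytes or from cells seeded before birth, and they engulf particles and digest them in lysosomes. Lineage factors such as PU.1, encoded by Spi1, and signals through the CSF1 receptor keep their identity. After thioglycolate the cavity fills with monocyte-derived macrophages beside the resident ones, which depend on the factor GATA6. Mature elicited cells are known for large lysosomes, strong phagocytosis and a low output of inflammatory cytokines until they meet a stimulus.

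Levels were ranked by the deposited signal, in the authors' units, and levels of different genes were compared as signal per kb, the signal divided by the length of the gene's longest annotated transcript. Of the 11996 genes 11797 had such a length, and a percentile below is the share of these 11797 genes at or under the gene's signal per kb. The median was 175 signal per kb. The top 10% of genes, 1180 in number, began at 1219 signal per kb, and the gene just outside had 1219 as well, so the edge marks no gap. By construction it holds 10% of ranked genes, and counts of list members are to be read against this share. In bulk RNA, fewer cells of a type and less RNA per cell cannot be told apart.

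The signal was held by few genes. All 4 columns of the table had the same total and the same highest value, and the part of the authors' scaling in the shape of the distribution was not tested. The highest value, 362618, was shared by 8 genes, whose sum was 10.9% of the column. The 100 highest genes held 34.2% of the signal and the 1000 highest held 64.7%, whereas the lower 5998 genes together held 4.79%. The 378 highest genes, 3.15% of all, reached the middle of the cumulative signal. At the low end 627 genes, 5.23% of the table, lay under 1 ppm of the column total, which equals 26.7 units. The lowest value was 1.

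**Figure D1:**
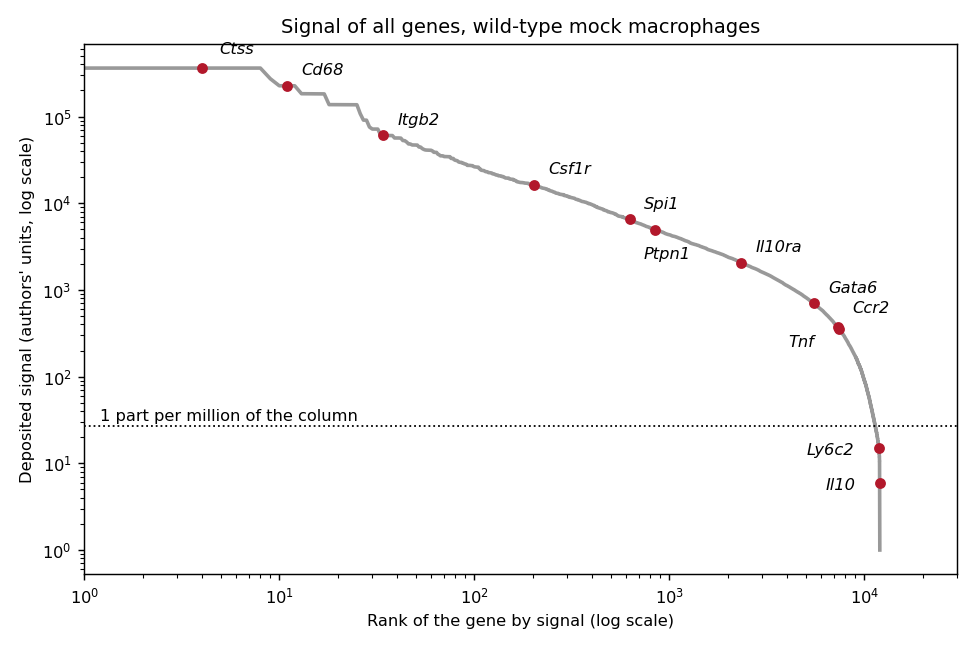
Deposited signal of each gene (vertical axis, authors' units, log scale) against its rank (horizontal axis, log scale) in wild-type mock macrophages, as a line, with named genes as points and the level of 1 ppm as a dotted line. The curve starts with a flat step of 8 genes at 362618, and Spi1 (6521), Ptpn1 (4961), Il10ra (2062) and Il10 (6) mark its slope downward.

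The 8 genes at the top were 6 genes of lysosomes, a secreted protease and lysozyme. Ctss (mm9 chromosome 3, 95330708 to 95360322), Ctsd (chromosome 7, 149557053 to 149568572) and Ctsb (chromosome 14, 63741302 to 63764758) encode cathepsins, the proteases of the lysosome. Psap (chromosome 10, 59740376 to 59765345) encodes the precursor of the saposins, which help lysosomal enzymes to reach sphingolipids. Atp6v0d2 (chromosome 4, 19803988 to 19849752) encodes a subunit of the proton pump that acidifies the lysosome. Gpnmb (chromosome 6, 48986676 to 49020928) encodes a glycoprotein of lysosomes and phagosomes. Mmp12 (chromosome 9, 7347406 to 7358888) encodes macrophage elastase, and Lyz2 (chromosome 10, 116714390 to 116719377) encodes lysozyme of myeloid cells. Because these genes share the highest value, their order per kb follows their length alone.

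Next by signal came the lipases Lpl, at 272893 units, and Lipa, at 226709. Cd68, a lysosomal glycoprotein gene used as a macrophage marker, stood at 226524 units, as did the endocytic receptor gene Lrp1, whose row spans 3523 bases and thus less than its longest transcript. The ferritin genes Fth1 and Ftl1 followed at 183565 and 183248 units, with Msn, which encodes the membrane linker moesin, between them at 183406. Vim, the intermediate filament vimentin, stood at 183008 units over a row of 812 bases. Per kb the order began with Lyz2, Ctss, Ftl1, Cd68 and Ctsd. Because Lyz2, Ctss and Ctsd stood at the shared highest value, their places against Ftl1 and Cd68 are uncertain. Lower signals also lay in narrow clusters with wide gaps between them. Examples are 226524 to 226709, with Cd68, Lrp1 and Lipa, and 182606 to 183565, with Fth1, Msn, Ftl1, Vim and Anpep. The order of genes inside such a cluster is uncertain too. Of the 25 highest genes per kb 7 were on the lysosomal list, 6 on the cytoskeleton and housekeeping list and 4 on the macrophage marker list. Of the 25, 1 was on no list, the aminopeptidase N gene Anpep with 48092 signal per kb. Of the 100 highest per kb 56 were on a list. The lists were chosen with earlier results of these data known, so these counts depend on that choice.

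The promoters of the highest genes were searched for the letters GAGGAAGT, a motif known for PU.1, on both strands. The 3 shown were picked because they held it, and they rank 2, 10 and 12 per kb. Their number therefore gives no share of high genes with the motif. Each runs from 250 bases before to 50 bases after the annotated start, on the gene's own strand, from RefSeq on GRCm38.p6. The capitals mark the motif, or its reverse complement ACTTCCTC.

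Ctss (chr3:95526536-95526835, plus strand): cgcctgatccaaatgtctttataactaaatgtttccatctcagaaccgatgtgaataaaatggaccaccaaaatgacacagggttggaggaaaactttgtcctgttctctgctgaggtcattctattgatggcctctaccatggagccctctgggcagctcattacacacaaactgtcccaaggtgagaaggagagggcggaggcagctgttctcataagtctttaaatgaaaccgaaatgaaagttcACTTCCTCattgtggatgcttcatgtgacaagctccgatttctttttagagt
Spp1 (chr5:104434861-104435160, plus strand): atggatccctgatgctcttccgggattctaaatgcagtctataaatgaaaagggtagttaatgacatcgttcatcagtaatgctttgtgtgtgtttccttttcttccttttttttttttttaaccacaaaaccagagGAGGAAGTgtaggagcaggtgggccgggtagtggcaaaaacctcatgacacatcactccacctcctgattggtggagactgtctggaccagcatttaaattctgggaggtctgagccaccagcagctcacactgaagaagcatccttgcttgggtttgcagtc
Mmp12 (chr9:7344147-7344446, plus strand): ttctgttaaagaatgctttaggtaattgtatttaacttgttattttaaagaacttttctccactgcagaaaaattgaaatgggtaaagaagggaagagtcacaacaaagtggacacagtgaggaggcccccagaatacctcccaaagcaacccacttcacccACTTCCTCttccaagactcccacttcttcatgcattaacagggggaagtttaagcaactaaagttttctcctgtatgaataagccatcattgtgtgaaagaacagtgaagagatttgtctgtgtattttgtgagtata

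Across ranked genes 9490 (80.4%) matched a promoter in that table, which holds no promoter of chromosome 18, so Csf1r, Cd14, Cd74 and Gata6 had none. In the top 10% 47 of 962 promoters held GAGGAAGT, a share of 4.89% (95% Wilson interval 3.69 to 6.44), beside 314 of 9490 over all ranked genes (3.31%, interval 2.97 to 3.69). Over all 27025 RefSeq promoters the share was 3.28%. The ETS motif CCGGAAGT was held by 7.28% of the top 10% (5.80 to 9.09) and 2.76% of the lowest 10% (1.88 to 4.04), beside 8.65% of all ranked genes and 4.00% of all promoters. Its share was highest, at 11.9%, in group 8 of the groups of 10% counted from the lowest, and was lower again at the top. The letters CACGTGAC, known for the lysosomal regulators TFEB and MITF, stood in 6.03% of the top 10% and 2.32% of the lowest, beside 4.44% of all ranked genes and 2.33% of all promoters. Of 23 lysosomal genes with a promoter, 3 held it, Ctsd, Lamp1 and Glb1. The PU.1 motif GAGGAAGT stood in 2 of these 23 and in 0 of 14 macrophage markers with a promoter. It stood in 0 of 42 genes on the list of lineage and other transcription factors. On the list of secreted proteases, matrix and tissue factors 4 of 16 held it. In all 8 motifs were searched, on both strands. The C/EBP motif TTGCGCAA stood in 0.624% of the top 10%, beside 0.295% of all ranked genes and 0.185% of all promoters. The AP-1 motif TGACTCA stood in 4.57%, beside 3.53% and 5.17%. The SP1 motif GGGCGG stood in 66.6%, beside 65.5% and 35.9%. The TATA box letters TATAAA stood in 8.84%, beside 6.87% and 14.2%, and the letters CCAAT in 38.8%, beside 38.7% and 37.9%. In the lowest 10% the shares were 54.3% for GGGCGG, 10.2% for TATAAA and 38.1% for CCAAT. For GAGGAAGT, TGACTCA and TTGCGCAA they were 2.76%, 3.86% and 0.221% there. Promoters of the lowest 10% had a median observed to expected ratio of CG pairs of 0.639, beside 0.772 over all ranked genes. The part of this in the motif shares was not tested. A match describes the letters and not a site that a factor used, and intervals cover counting error only.

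**Figure D2:**
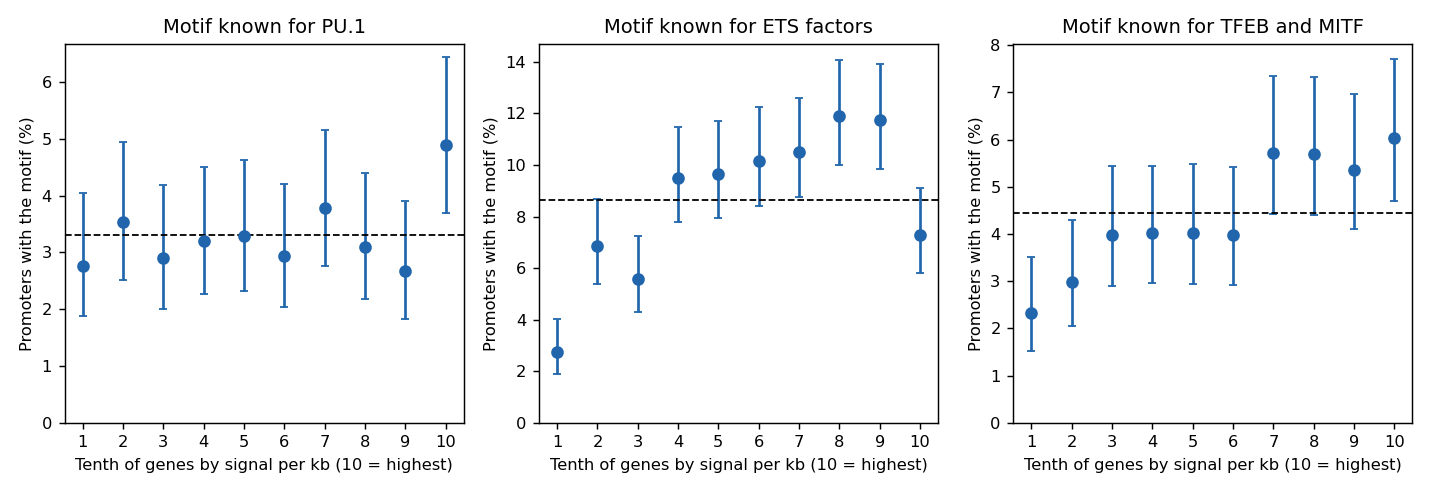
Percent of promoters holding each motif (vertical axis) by group of 10% of genes ranked by signal per kb (horizontal axis, 10 the highest), with 95% Wilson intervals as bars and the share over all ranked genes as a dashed line. The PU.1 motif is highest in the top 10% at 4.89%, the ETS motif is lowest in the lowest 10% at 2.76%, and the TFEB and MITF motif is lowest there too at 2.32%.

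The markers of macrophages, the labelled cell type, stood at high levels. All 20 macrophage markers had a row, all lay above the median and 16 were in the top 10%, with a median percentile of 97.3. After Lyz2 and Cd68 came Lgals3, which encodes galectin-3, at 96442 signal per kb, and Tyrobp and Fcer1g, adaptors that pass on signals of activating receptors, at 53097 and 38515. Mpeg1, which encodes the pore-forming perforin-2, had 31637, Laptm5 21689 and the integrin chain Itgb2 20379. Csf1r, the receptor for the growth factor CSF1, stood at 3433 signal per kb (percentile 96.8) and Adgre1, the F4/80 antigen listed under its older name Emr1, at 3363 (96.7). The lowest 4 were the scavenger receptor Msr1 at 1186 (89.7), the engulfment receptor Mertk at 741 (83.2), Fcgr1 at 561 (78.0) and Aif1, the marker Iba1, at 179 (50.6).

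Markers of resident peritoneal macrophages lay lower and ranged widely. Of 13, Timd4 and Apoc1 were not analysed here, and 4 of the other 11 lay above the median, with a median percentile of 30.7. Cd5l, a secreted scavenger-like protein of tissue macrophages, was 1 of 11 in the top 10% with 2407 signal per kb, though with the median transcript length 0 of 11 were. The coagulation factor gene F10 had 855 (85.3) and the chemokine gene Cxcl13 had 821 (84.6). Gata6 itself stood at 700.0 units and 185 signal per kb (51.3). Icam2, at 94.8, and Prg4, at 74.5, lay below the median, and Selp, Alox15, Lrg1 and Adgre4 lay between 7.73 and 19.8.

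Of 9 monocyte markers analysed 2 lay above the median, Fn1 and Chil3. Fn1, which encodes fibronectin and is also made by macrophages and fibroblasts, had 8622 signal per kb (98.9). Chil3, listed as Chi3l3, had 373 (69.3) and F13a1 96.4 (35.6). The chemokine receptor gene Ccr2, which marks inflammatory monocytes, had 64.7 (28.1), Plac8 had 8.17 and Ly6c2 5.60 (3.04). Of the 9, 1 was in the top 10% and 3 in the lowest.

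Of 88 markers of other cell types on 9 lists, 46 had a row, and 3 of these were in the top 10%, a share of 6.52% beside 10% of all ranked genes. Their median percentile was 21.7, and 42 markers, among them Cd3e, Cd4, Cd8a, Ly6g, Elane and Flt3, were not analysed here. T and NK cell markers were represented by Cd28 at 90.9 signal per kb, Lck at 5.26 and Cd5 at 5.19, and B cell markers by Cd79a at 40.2, Cd79b at 25.2 and Ms4a1 at 5.04. Among neutrophil markers the collagenase gene Mmp8 had 326 (66.2), whereas S100a8 had 106 (37.9) and S100a9 16.4 (10.5). Of 7 mast cell markers the lowest was Kit at 3.43, and the chymase gene Cma1 had 88.1. Endothelial markers, 4 of 8 analysed, had a median percentile of 12.6, with Vwf, which encodes von Willebrand factor, at 255 (59.7), Kdr at 48.0 and Pecam1 at 2.18, and eosinophil and basophil markers, 3 of 8 analysed, had one of 37.4. Dendritic cell markers included Itgax, shared with macrophages, at 2950 (96.1), but Zbtb46 at 19.0 and Cd209a at 4.05. The platelet factor gene Pf4, also made by macrophages, had 2080 (94.3) and left the top 10% without division by length or with the median transcript length, while the haemoglobin gene Hba-a1, which has a close copy, had 41.5.

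Markers of mesothelial cells and fibroblasts were the most complete of these lists, with all 13 analysed and 6 above the median. The collagen gene Col1a2 stood at 16470 units and 3080 signal per kb (96.3), Col1a1 at 986 (87.5) and Col3a1 at 824 (84.7). Dcn had 621 (80.0) and Pdgfra 421 (72.0). Lum, Msln, Pdgfrb and Krt19 were the lowest, between 7.76 and 45.1. Of the 13, 1 was in the top 10%, or 3 without division by length or with the median transcript length. Their summed signal was 0.130% of the column against 4.33% for the macrophage markers, and the part of such cells in any level given here was not tested.

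**Figure D3:**
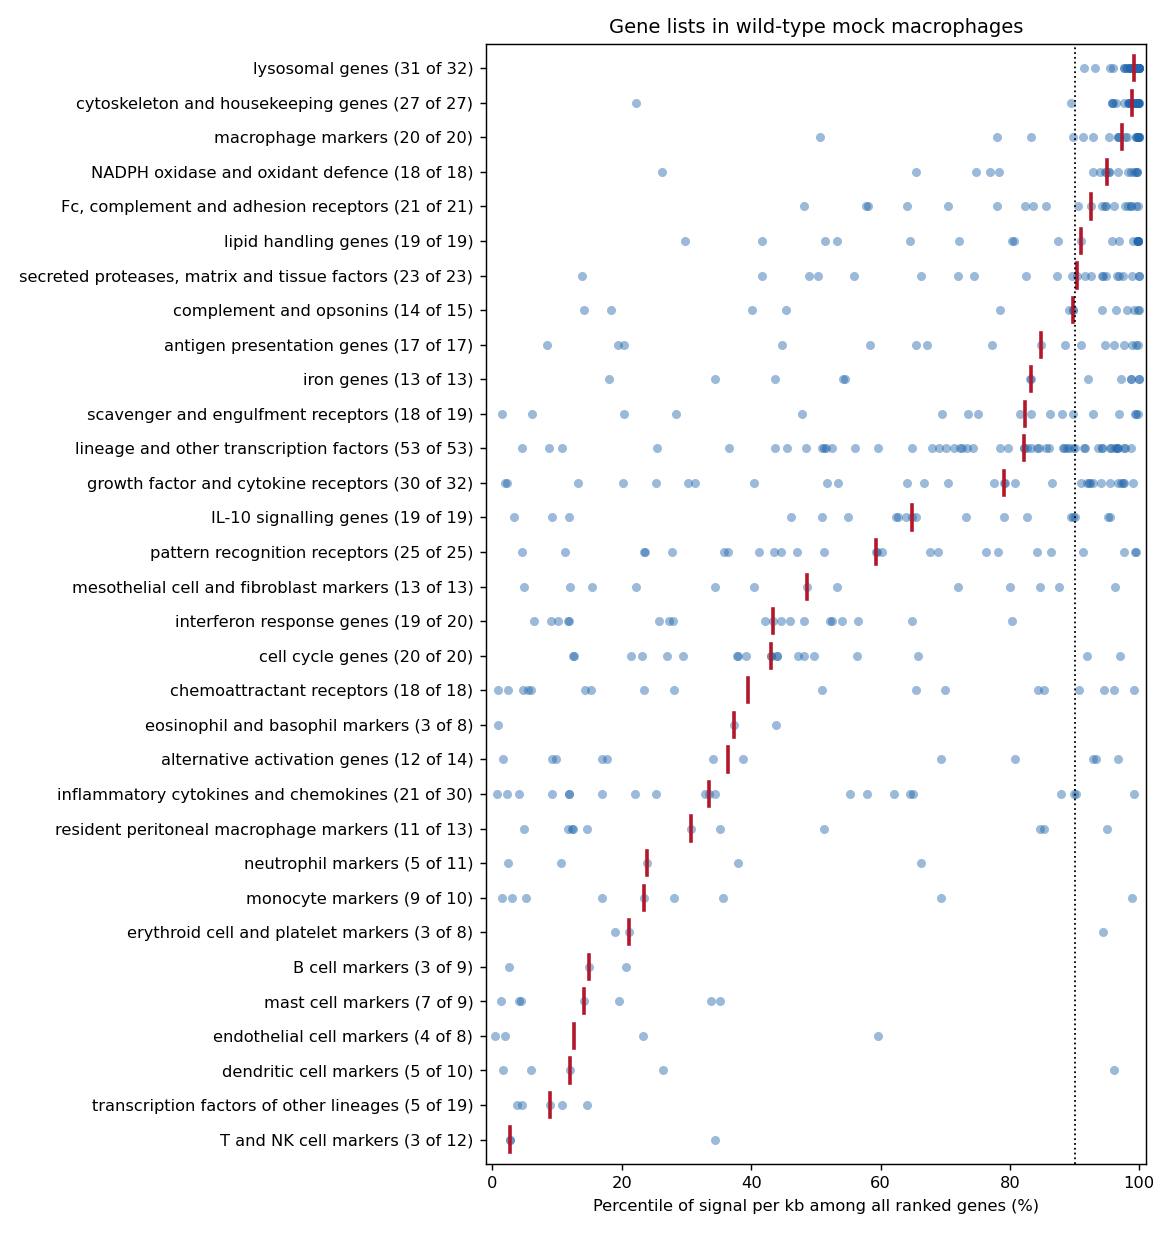
Percentile of signal per kb (horizontal axis, %) of each analysed member of the gene lists (points, 1 row per list, with the number analysed of the number on the list), with the list's median as a red line and the edge of the top 10% dotted. Lysosomal genes (median 99.2), cytoskeleton and housekeeping genes (98.9) and macrophage markers (97.3) stand at the top, and markers of T and NK cells (2.74) at the bottom.

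Lysosomal genes stood together at the top. All 31 analysed members were in the top 10%, beside 10% of all genes, with a median percentile of 99.2, and they held 11.5% of the column's signal. Below the 6 genes at the highest value, Lipa, which encodes lysosomal acid lipase, had 58205 signal per kb. The cathepsin inhibitors Cst3 and Cstb had 34600 and 34276, the cathepsin Ctsz 28347 and the membrane protein Lamp1 27094. Near the low end of the list were the cholesterol transporter Npc1 at 2858 (95.9), the cathepsin Ctsc at 1752 (93.1) and the galactosidase Glb1 at 1416 (91.4). Cst7 was not analysed here.

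Of 19 lipid genes 10 were in the top 10%, led by Lpl at 66317 and Lipa at 58205 signal per kb. The fatty acid receptor Cd36 had 40417, Apoe at 40219, the lipid droplet protein Plin2 at 37972 and the fatty acid carrier Fabp5 at 33350. Soat1, which esterifies cholesterol, had 2806 (95.8), and the cholesterol exporters Abcg1 and Abca1 had 984 (87.5) and 637 (80.6). At the low end were the fatty acid synthase Fasn at 125 (41.7) and the desaturase Scd1 at 70.9 (29.8). Of 13 iron genes 6 were in the top 10%, with Ftl1 at 189306 and Fth1 at 89023, both of which have processed copies that can share reads. The haem oxygenase gene Hmox1 had 7608 (98.7) and the phagosomal metal transporter Slc11a1 7582 (98.7). Slc40a1, which encodes ferroportin, the cell's iron exporter, had the lowest level, at 128.5 units and 32.7 signal per kb (18.1).

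Genes of the phagocyte oxidase and of oxidant defence were high, with 13 of 18 in the top 10% and a median percentile of 95.1. The membrane subunits of the oxidase, Cyba and Cybb, had 32280 and 5925 signal per kb, and the cytosolic subunits Ncf4 and Ncf1 had 2254 and 1707. The peroxidase genes Prdx1 and Gpx1 had 24673 and 17675. At the low end were Gclm at 529, Gclc at 483, Sod2 at 318 and Nqo1 at 57.0 (26.2). Nfe2l2, which encodes the factor NRF2, had 4610 (97.6), and the activity of NRF2 was not tested.

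Among transcription factors, all 53 on the list had a row, 45 lay above the median and 15 were in the top 10%, with a median percentile of 82.2. Atf3, a stress-induced repressor, was the highest at 7566 signal per kb (98.7), followed by Id2, an inhibitor of helix-loop-helix factors, at 4839 and Nfe2l2 at 4610. Bhlhe40 had 3403, Atf4, a mediator of amino acid and stress responses, 3302, and Spi1, listed as Sfpi1, 3206 (96.5). Irf5, which drives inflammatory genes in macrophages, had 3046, and Klf6 2693. Other lineage factors followed: Cebpa at 2600 (95.5), Cebpb at 2051 (94.3) and Irf8 at 905 (86.1). The lipid-sensing receptors Pparg and Nr1h3 had 1096 (88.8) and 741 (83.2). The lysosomal regulators Tfeb, Tfe3 and Mitf had 1053 (88.3), 692 (82.2) and 433 (72.6).

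The lowest 4 of these factors were Nr4a1 at 54.8 signal per kb (25.5), Irf4 at 16.7 (10.7), the aryl hydrocarbon receptor Ahr at 13.2 (8.71) and Rarb at 7.40 (4.49). Of 19 factors of other lineages 5 had a row, none in the top 10%, and their median percentile was 8.97. The T cell factor Tcf7 had 24.3, Tal1 16.7, Gata2 13.4, Gata3 7.47 and the granulocyte factor Cebpe 6.45. The other 14, such as Pax5, Foxp3 and Sox2, were not analysed here.

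**Figure D4:**
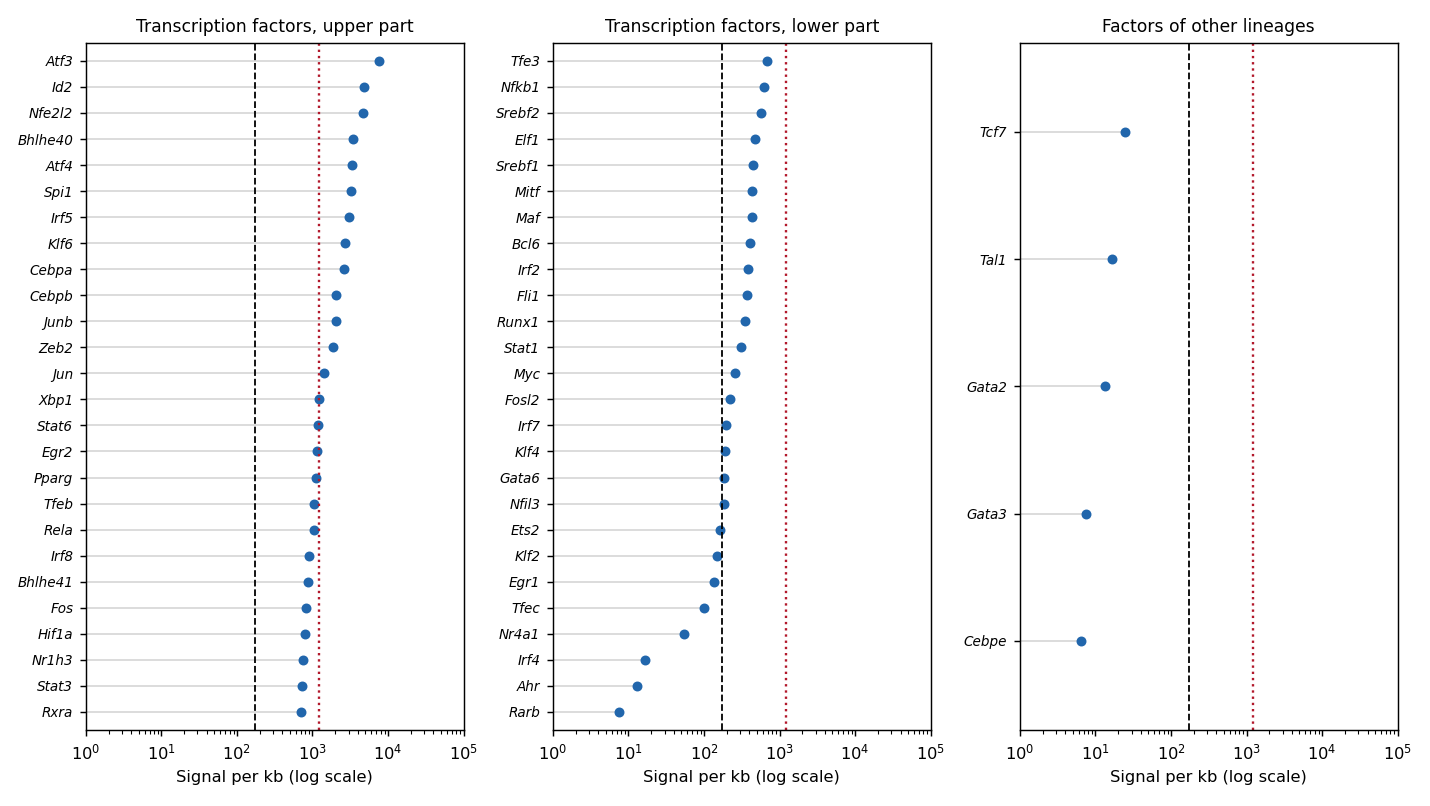
Signal per kb (horizontal axis, log scale) of transcription factors of the main list in 2 panels and of other lineages in the third, with the median of all genes dashed and the edge of the top 10% dotted. Atf3 (7566) is the highest and Rarb (7.40) the lowest of the main list, while the 5 factors of other lineages lie left of the dashed line, at 24.3 or less.

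The 5 receptor lists also hold ligands, adaptors and bridging proteins, such as Gas6, Myd88 and Mfge8. Of their 115 genes 112 had a row, 37 of them were in the top 10% and 78 lay above the median, with a median percentile of 76.9. Growth factor and cytokine receptors counted 12 of 30 in the top 10%. The highest was Il7r, the alpha chain shared by the receptors for IL-7 and TSLP, at 32926 units and 9301 signal per kb (99.0). Tnfrsf1b, the second TNF receptor, had 4612, the GM-CSF receptor chains Csf2ra and Csf2rb 4339 and 3883, and Csf1r 3433. Il10rb, the IL-10 receptor chain shared with other cytokines, had 2596 (95.5), the common gamma chain Il2rg 1971 and Tnfrsf1a 1693. The lowest 4 were Il15ra at 38.9, Igf1r at 21.5, the IL-33 receptor Il1rl1 at 4.72 and the IL-18 receptor Il18r1 at 4.33, and Il1r2 and Lepr were not analysed here.

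The chains of a receptor often stood at unequal levels. Of 24 pairs of chains, partners or ligand and receptor, picked after the table was known, 17 kept the same order whether signal was divided by the longest transcript length, by that length limited to the row's span, or by the median transcript length. The limit to the row's span changed the ratio of Cybb to Cyba alone, so the order was in effect set against the median length. Il10ra had 589 signal per kb against 2596 for Il10rb, a ratio of 0.227 (0.125 with the median length). Ifnar1 stood at 926 against 1627 for Ifnar2, a ratio of 0.569 (0.576). The shared IL-6 receptor chain Il6st had 547 against 188 for Il6ra, a ratio of 2.91 (6.30). Il1rap had 77.7 against 333 for Il1r1, a ratio of 0.233 (0.274). The integrin alpha chains Itgam, Itgax and Itgal stood at ratios of 0.237, 0.145 and 0.0116 to their common partner Itgb2, and that of Itgax was 0.541 with the median length. The order of 7 pairs turned with the length used, those of the interferon-gamma, GM-CSF and LPS receptors, Cybb and Cyba, Ftl1 and Fth1, Axl and Mertk, and H2-Ab1 and H2-Aa.

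Of 18 chemoattractant receptor genes 9 lay above the median, and the median percentile was 39.5. The complement receptor C3ar1 had 11231 signal per kb (99.1), the receptor for platelet-activating factor Ptafr 3000 (96.2), Cxcr4 2123 (94.5) and C5ar1 1315 (90.7). These 4 of 18 were in the top 10%, or 1 of 18 with the median transcript length. Ccr1 had 803 (84.4). The lowest 4 were the formyl peptide receptors Fpr2 and Fpr1 at 8.38 and 7.55, Cxcr2 at 4.92 and the eotaxin receptor Ccr3 at 2.75 (0.788). In all 5 of 18 were in the lowest 10%.

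Pattern recognition receptors had 4 of 25 in the top 10% and a median percentile of 59.3. The highest were the lectins Clec7a, or Dectin-1, which binds beta-glucan of fungi, at 18384 signal per kb (99.5) and Clec4d at 13315 (99.3). Tlr13, which senses bacterial ribosomal RNA in endosomes, had 4540 (97.6) and the LPS co-receptor Cd14 1401 (91.3). The RNA sensors Tlr8 and Tlr7 had 918 (86.4) and 564 (78.1), and the surface receptors Tlr4 and Tlr1 had 346 (67.7) and 253 (59.5), with Tlr2 just below (59.3). The lowest 4 were Tlr3 at 49.1, the DNA sensor cGAS, on the list as Mb21d1, at 48.7, Nod2 at 17.6 and the flagellin receptor Tlr5 at 7.46 (4.59).

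**Figure D5:**
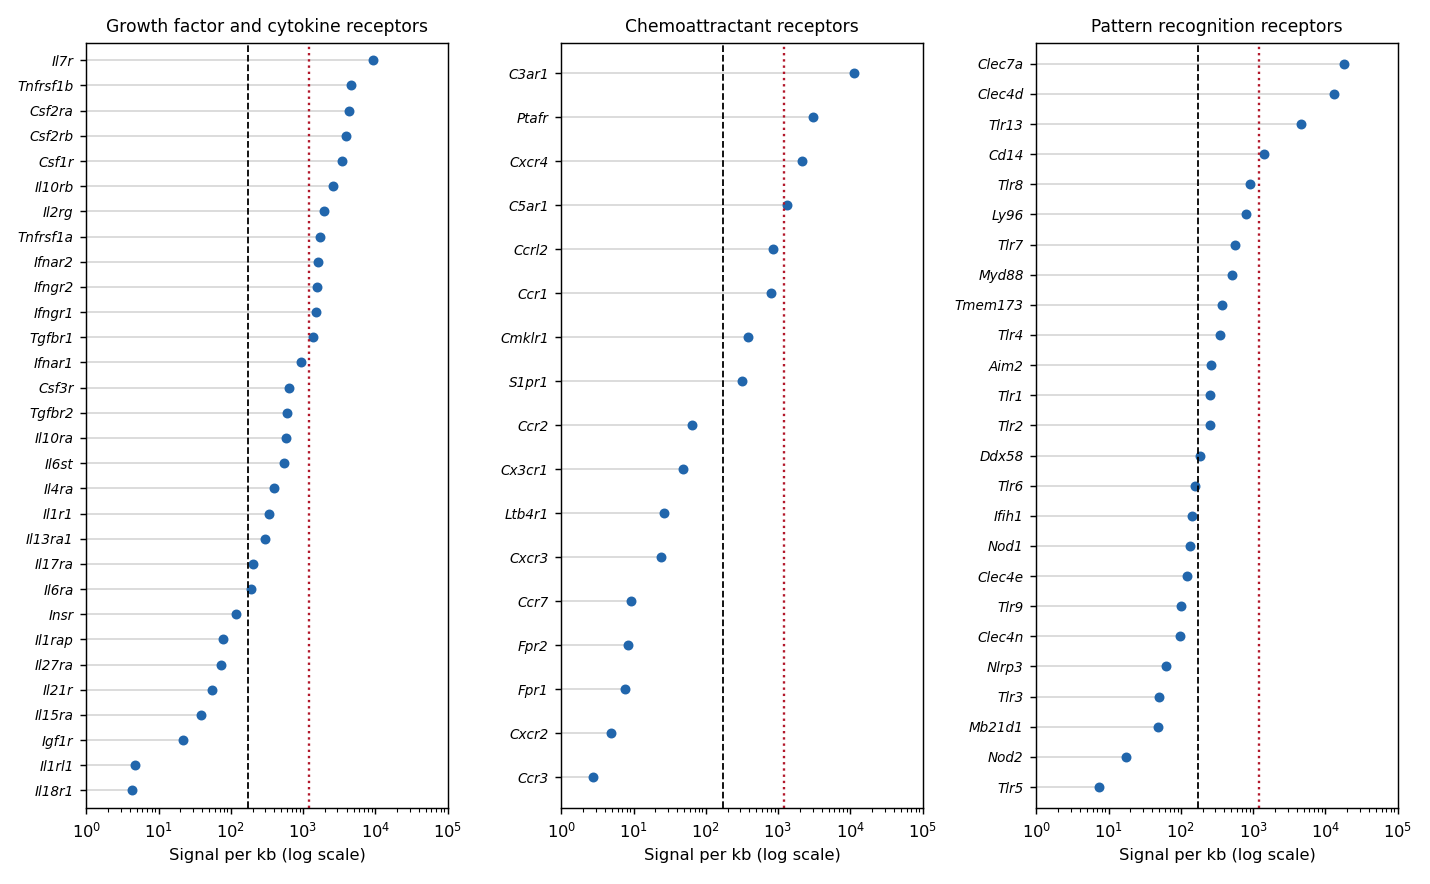
Signal per kb (horizontal axis, log scale) of genes of 3 receptor lists, with the median of all genes (175) dashed and the edge of the top 10% (1219) dotted. Il7r (9301), C3ar1 (11231) and Clec7a (18384) lead their panels, and Il18r1 (4.33), Ccr3 (2.75) and Tlr5 (7.46) close them.

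Fc, complement and adhesion receptors counted 12 of 21 in the top 10% and 20 above the median. Behind Fcer1g and Itgb2 came Sirpa, which receives the CD47 signal that restrains engulfment, at 8264 signal per kb (98.8), and the activating Fc receptor Fcgr3 at 7860 (98.7). Fcgr4 had 2244, the inhibitory Fcgr2b 1632 and the high-affinity Fcgr1 561. The lowest 4 were Vsig4 at 302, Itgb3 at 238, Itgal at 236 and Itga4 at 162 (48.1). Scavenger and engulfment receptors ran from Cd36 at 40417, the bridging protein Mfge8 at 17572 and Lrp1 at 15215 down to Marco at 65.5, Olr1 at 39.1, Tyro3 at 9.19 and Cd163 at 3.83 (1.53). Of 18 analysed 5 were in the top 10%, or 8 without division by length.

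Of 23 genes of secreted proteases, matrix and tissue factors 20 lay above the median. Spp1, the phosphoprotein osteopontin, stood at 137379 units and 91161 signal per kb, Mmp12 at 81050 and Fn1 at 8622. The protease inhibitor Timp2 had 4438, Adam8 3669, Tgfb1 3224 and Sparc 2336. Of this list 12 of 23 were in the top 10%, and Mmp9 at 178, Serpinb2 at 167, Mmp13 at 125 and Hbegf at 22.8 closed it. The C1q chains C1qb, C1qc and C1qa had 11563, 5536 and 3136, properdin (Cfp) 2060 and C3 1190, and 6 of 14 complement and opsonin genes analysed were in the top 10%. The complement genes C4b, Cfb and C2 had 145, 116 and 23.5, and Lcn2 had 33.5.

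Of 30 inflammatory cytokine and chemokine genes 21 had a row. Of these 9 lay above the median and 2 were in the top 10%, near the 10% of all genes, or 1 with the median transcript length, without division by length, or with genes under 1 ppm left out. Their median percentile was 33.4. The chemokine gene Ccl6 had 12031 signal per kb (99.2), and Ccl9 had 1250, Ccl3 1208 and Ccl2 1022. Tnf stood at 350.5 units and 214 signal per kb (55.3) and Il1a at 604 units and 306. Il1b stood at 9.5 units, Il10 at 6 and Cxcl3 at 9.5, all under 1 ppm. Il6, Il12a, Il12b, Il23a, Ccl12, Cxcl9, Cxcl11, Ifnb1 and Nos2 were not analysed here. Il1rn, the secreted antagonist of IL-1, stood far above both IL-1 genes at 8617 units and 3374 signal per kb (96.7).

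Of 12 alternative activation genes analysed 3 were in the top 10%, Il1rn, Tgm2 at 1801 and the mannose receptor Mrc1 at 1702. Arg1 had 644 (80.8) and Chil3 373, whereas Retnla had 110 (38.7), Mgl2 14.7 and Cd209a 4.05. Of 17 antigen presentation genes 7 were in the top 10%, led by the class I light chain B2m at 61264 signal per kb and the heavy chains H2-D1 and H2-K1, close copies, at 19514 and 8837. The class II chaperone Cd74 had 4643 (97.7) and H2-Ab1 2227 (94.7). The costimulators Cd86, Cd40 and Cd80 had 142, 39.5 and 36.9, and Ciita, the activator of class II genes, 12.7 (8.37).

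Of 19 genes of the IL-10 pathway, measured without added IL-10, 15 lay above the median and the 4 below were Socs genes and Cish. Il10rb and the kinase Jak1, at 2500 signal per kb (95.2), were in the top 10% with the phosphatase Ptpn6 at 1236 (90.1), 3 of 19, or 5 without division by length and 6 with the median length. Ptpn1, which encodes the phosphatase PTP1B, stood at 4961 units and 1156 signal per kb (89.4). Stat3 had 717 (82.7), Il10ra 589 (79.0), Tyk2 318 and Jak2 287. Socs3, the feedback inhibitor that STAT3 induces, had 149 (46.1), and Socs1, Socs2 and Cish had 18.6, 13.9 and 5.96. Interferon response genes had 0 of 19 in the top 10% and a median percentile of 43.3, from Oas1a at 631 (80.3) to Mx1 at 9.75 (6.41).

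Cell cycle genes had a median percentile of 43.1, with 4 of 20 above the median. Pcna, the sliding clamp of DNA replication, had 3687 signal per kb (96.9), over a row shorter than its transcript, and Cdkn1a, the inhibitor p21, 1502 (91.9). These were 2 of 20 in the top 10%, or 1 with the median length or without division by length. Mki67 stood at 136 (44.0), Top2a at 132 and Cdk1 at 42.4. Cytoskeleton and housekeeping genes had 25 of 27 in the top 10%, with Eef1a1 at 76283, Tmsb4x at 69943 and Actb at 47319. Hprt, at 1159, and Tbp, at 44.6 (22.1), lay outside it.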

How the data were processed

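Illumina's standard protocol was applied to TRIzol-extracted RNA, per the labels' protocols. The submitters' processing notes name RSEM, Bowtie and the mm9 build but no versions. Not given in the sources used here were the task of each tool, the annotation, the normalization and any filter. The deposited signal is 1 value per gene and group. The file is named for CPM, but the wild-type mock values sum to 26705598, so they are not CPM; each is a multiple of 0.5 and 8 genes share the highest, a level at which differences between genes are not resolved. Depth is unknown. With no value per sample, no test was run.

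Signal was divided by the longest transcript length in GENCODE M21 (GRCm38; lengths matched by Ensembl ID, 199 genes had none). Rows follow mm9 coordinates. Of the rows 2898 span less than 50% of the annotated gene and 1288 less than the longest transcript, so the counted part of a gene can differ. Across genes the Spearman's rho of signal with length was 0.12. The sources used here do not say whether the signal was already adjusted for length, and the need for the division was not tested. The median transcript length in the top 10% was 2403 bases with the division and 3629 by signal alone, beside 3457 over all ranked genes. The 32 lists hold 539 genes; 467 had a row, found by Ensembl ID, name or RefSeq synonym. Members and lists were chosen with earlier results of these data known. Genes named are the 25 highest per kb, the 15 highest by signal, and in each list the 8 highest, the 4 lowest and those without a row, plus Ptpn1, Il10ra, Il10rb, Stat3, Csf1r, Spi1, Adgre1, Lyz2 and Gata6; some of these are left out of the text, a few because they are not reported here, and others named were chosen after their values were seen. Where a gene had several RefSeq promoters, the one listed earliest was used. Overlap between motifs was allowed. Python 3.11.15, pandas 2.3.3, numpy 2.4.6 and scipy 1.17.1 were used. The counting of list members was tested on simulated data, whereas the motif counts, the pairs and the matching of names were not.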

Additional observations from a re-analysis of the deposited data

How the results depend on the processing

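The counts of list members in the top 10% were recomputed in 6 ways. Macrophage markers, lysosomal genes and the pooled markers of other cell types stayed within 1.5 times their count in all 6. Factors of other lineages counted 0 throughout, which cannot show stability. With the top 5% in place of the top 10%, the counts were 9 of 53 transcription factors, 22 of 112 genes of the receptor lists, 0 resident macrophage markers and 1 inflammatory cytokine or chemokine, lower because fewer genes can enter. With the median transcript length the resident markers fell to 0 and the cytokines to 1 in the top 10%. Cytokines were also at 1 without division by length and with genes under 1 ppm left out. The ETS motif CCGGAAGT was held by 5.80% of the top 10% by signal not divided by length, and the cause was not tested. By the same ranking the PU.1 motif GAGGAAGT was held by 4.45% (95% Wilson interval 3.32 to 5.94). That interval overlaps the one of all ranked genes (2.97 to 3.69). All ranked genes include the top 10%, so neither overlap of these intervals nor its absence tests a difference. Summing rows of the same name, or limiting the length to the row's span, which was added after seeing the data, moved none of these counts by over 1.5 times. The top 10% by the median length shared 70.4% of its genes with that by the longest, and the top 10% by signal alone shared 73.8%. Values per sample were not analysed here, so no replicate could be left out. No paired analysis was possible because the column carries no replicate numbers.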

Other observations

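Several genes outside the lists stood very high. After Anpep came Pld3, of the phospholipase D family, at 39644 signal per kb, the membrane protein gene Itm2b at 33626 and Anxa1, which encodes the calcium-dependent membrane binder annexin A1, at 30366. The adaptor Sdcbp had 27586, the aldehyde reductase Akr1a1 27153, the tetraspanin Cd53 27018 and the small GTPase Rab7, which directs traffic to lysosomes, 21743. The 20 ribosomal protein genes with a row, picked by name after the table was seen, were all in the top 10%, with a median percentile of 99.0. Members of that family without a row were not analysed here, so the count need not cover the family.

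Npy, which encodes neuropeptide Y and is best known from neurons, stood at 7450 units and 13162 signal per kb (percentile 99.3; mm9 chromosome 6, 49772709 to 49779506), a level above that of Csf1r per kb. With a transcript of 566 bases, Npy ranked 88 per kb but 531 by signal, so its place depends on the division by length. Il7r, better known from lymphocytes, stood at 32926 units. Both were singled out after their values were seen, and their source was not tested.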
